A study of Mus musculus with 24 samples.

Results

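The cytosolic ribosomal protein genes were examined in mouse liver as 1 family of 78 genes among 21495 genes tested. A gene belonged to the family if its name on the array was that of a small subunit protein (Rps and a number, or Rpsa), a large subunit protein (Rpl and a number) or a stalk protein (Rplp0, Rplp1 or Rplp2). The kinases named Rps6k were left out. This naming rule found 176 probes of 81 genes, and 170 probes of 78 genes were also in the authors' processed table. Rpl3l, Rpl10l and Rpl39l, paralogues known from muscle and testis, had no probe in that table and are not analysed here. Where a gene had several probes, the one brightest on average over the 24 arrays was taken for it. The family comprised 32 small subunit genes, 43 large subunit genes outside the stalk and 3 stalk genes.

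Livers came from male mice 12 weeks old, killed at zeitgeber time 16 h, 1 array per mouse. The labels give 2 genotypes, p110aLWT and p110aLKO, and 2 feeding states, Fed and Fasted, written here as LWT_Fed, LWT_Fasted, LKO_Fed and LKO_Fasted with 6 mice in each. All mice carried floxed alleles of Pik3ca, the gene of p110α, which is a catalytic unit of phosphoinositide 3-kinase. LKO mice also carried Cre recombinase under the albumin promoter, which is active in hepatocytes, so the other cells of the liver keep the gene, while LWT mice were littermates without Cre. Fed mice had free access to food and fasted mice had none for 24 h.

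A ribosome is built from a small subunit, which reads the mRNA, and a large subunit, which joins amino acids and carries a flexible stalk that recruits elongation factors. Each subunit is an assembly of ribosomal RNA with proteins that are made in the cytoplasm and imported into the nucleolus. Insulin acts through phosphoinositide 3-kinase, AKT and the kinase complex mTORC1 on ribosome production. mTORC1 promotes translation of mRNAs that begin with a terminal oligopyrimidine (TOP) tract, a cytosine followed by a run of pyrimidines, and most ribosomal protein mRNAs belong to this class. It also activates the S6 kinases, whose best known substrate is the ribosomal protein encoded by Rps6. TOP control acts mainly on translation and on stability of the mRNA, and an array measures only the amount of mRNA.

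The start sites of members on which the results turn are shown because the TOP tract is the sequence feature that ties these genes to insulin signalling. RefSeq promoters of assembly GRCm38.p6 were found for 57 of the 78 genes, with 68 annotated starts. Each line gives 30 bases, 15 before the annotated start and 15 from it onward, 5′ to 3′ on the gene's strand, and capitals mark a tract of a C followed by at least 4 pyrimidines that begins within 10 bases of the start. Lines without capitals are members that also lead the results and have no such tract.
Rps6, chr4:86857353-86857382, minus strand: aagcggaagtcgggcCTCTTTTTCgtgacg
Rps18, chr17:33955651-33955680, minus strand: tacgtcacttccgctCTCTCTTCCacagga
Rplp2, chr7:141447636-141447665, plus strand: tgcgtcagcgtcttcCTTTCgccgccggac
Rpl12, chr2:32961697-32961726, plus strand: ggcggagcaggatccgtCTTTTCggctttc
Rpl13a, chr7:45128731-45128760, minus strand: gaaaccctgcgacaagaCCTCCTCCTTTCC
Rpl35a, chr16:33056467-33056496, plus strand: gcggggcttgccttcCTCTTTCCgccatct
Rps27, chr3:90213634-90213663, minus strand: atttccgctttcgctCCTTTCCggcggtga
Rps27l, chr9:66946071-66946100, plus strand: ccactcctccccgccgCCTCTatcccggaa
Rps12, chr10:23787195-23787224, minus strand: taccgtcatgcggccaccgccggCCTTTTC
Rpl13, chr8:123102335-123102364, plus strand: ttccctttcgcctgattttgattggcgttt
Rps15, chr10:80292416-80292445, plus strand: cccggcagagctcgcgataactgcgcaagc
Rps28, chr17:33824548-33824577, minus strand: ggtaccgcgtgcggtctcgcgagagcgaaa
Rpsa, chr9:120127751-120127780, plus strand: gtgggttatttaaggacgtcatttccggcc
Rpl10, chrX:74270801-74270830, plus strand: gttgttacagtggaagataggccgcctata
In Rps6, Rps18, Rplp2, Rpl35a and Rps27 the tract began at the annotated start shown, and in Rps12 it began 8 bases after it. Rpl35a and Rps27l also have other annotated starts, not shown, that have no such tract.

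Across the family, 13 of the 57 genes with a promoter (22.8%) had such a tract at an annotated start, against 3.01% of all 27025 genes in the promoter table. Within 10 bases of a start, 35 of 57 (61.4%) had one, against 34.4% of all genes. The letters CCGGAA, the core recognised by ETS family factors, occurred on either strand of the window from 250 bases before a start to 50 after it in 56.1% of the members and 16.7% of all genes. AAGATGG, the core of the YY1 site, occurred in 15.8% and 7.28%. The Sp1 motif GGGCGG occurred in 61.4% of the members and 38.2% of all genes, the Myc family motif CACGTG in 10.5% and 8.09%, and the TBP motif TATAAA in 10.5% and 15.7%. A match of letters is a description of these windows and was not tested as a binding site.

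Signals of the family were strong and steady. All 78 genes passed the detection filter, which required a signal well above background in 5 or more of a group's 6 arrays, for any 1 of the groups. For 77 genes the probe was well above background on all 24 arrays, and no spot was saturated. The exception was Rpl37, a large subunit gene whose only probe was near background, with 2, 5, 1 and 4 arrays detected in LWT_Fed, LKO_Fed, LWT_Fasted and LKO_Fasted. It passed the filter only through LKO_Fed, and its fitted differences did not pass in either genotype comparison. Counts and medians below include it. Without it the 77 other genes gave the same numbers higher and lower in each comparison, and their medians were 0.15 and 0.19 between genotypes in fed and fasted mice. Probe brightness also depends on the probe, so levels of different genes were not set against each other, but 76 of the 78 probes lay in the brightest 10% of genes. The standard deviation within a group was 0.080 on the log2 scale for the median member and reached 0.36 for Rps4l, which RefSeq lists as a transcribed pseudogene.

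Share of spots well above background was 54.7% to 63.0% over the 24 arrays and did not separate the groups. All 8 hepatocyte markers, among them Alb and Ttr, were detected on every array. The Pik3ca probe read 11.91 ± 0.21 (SD, n = 6) in LWT_Fed and 12.54 ± 0.26 in LKO_Fed, and 12.28 ± 0.14 in LWT_Fasted and 12.26 ± 0.19 in LKO_Fasted. In fed mice it was called higher in LKO, by 0.58 (adjusted p = 0.00156) with all LKO_Fed arrays above all LWT_Fed arrays, which is the direction opposite to a loss of the transcript. In fasted mice the difference was -0.021 (adjusted p = 0.931), and the interaction was -0.60 (adjusted p = 0.0316). Whether this probe lies in the deleted part was not determined, so it does not check the genotype labels. LKO_Fasted replicates 1 and 2 stood apart from the other arrays in earlier work on these data, and LWT_Fed replicate 3 stood apart here in the family itself, so counts are given without them below. In whole liver, fewer cells of a type and less RNA per cell cannot be told apart.

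To see the family as a whole, each gene's signal was expressed as its deviation from its own mean over the 24 arrays, and the median over the 78 genes was taken in each array. In LWT_Fed the 6 medians ran from -0.19 to 0.0095 with a median of -0.023, and in LKO_Fed from 0.038 to 0.16 with a median of 0.12. In LWT_Fasted they ran from -0.21 to -0.070 with a median of -0.13, and in LKO_Fasted from 0.030 to 0.11 with a median of 0.064. Every LKO array thus lay above every LWT array, fed or fasted. The same median over the 2074 other genes of the brightest 10% stayed between -0.066 and 0.035 on all arrays. It ran from -0.066 to 0.018 in LWT_Fed and from 0.015 to 0.035 in LKO_Fed, where 5 of 6 arrays lay above every LWT_Fed array. In the fit, however, the median difference of these genes between LKO_Fed and LWT_Fed was -0.0031, with 15.1% called higher and 13.9% lower. In fasted mice they overlapped, with LKO_Fasted from -0.025 to 0.00087 and LWT_Fasted from -0.032 to 0.00014.

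**Figure D1:**
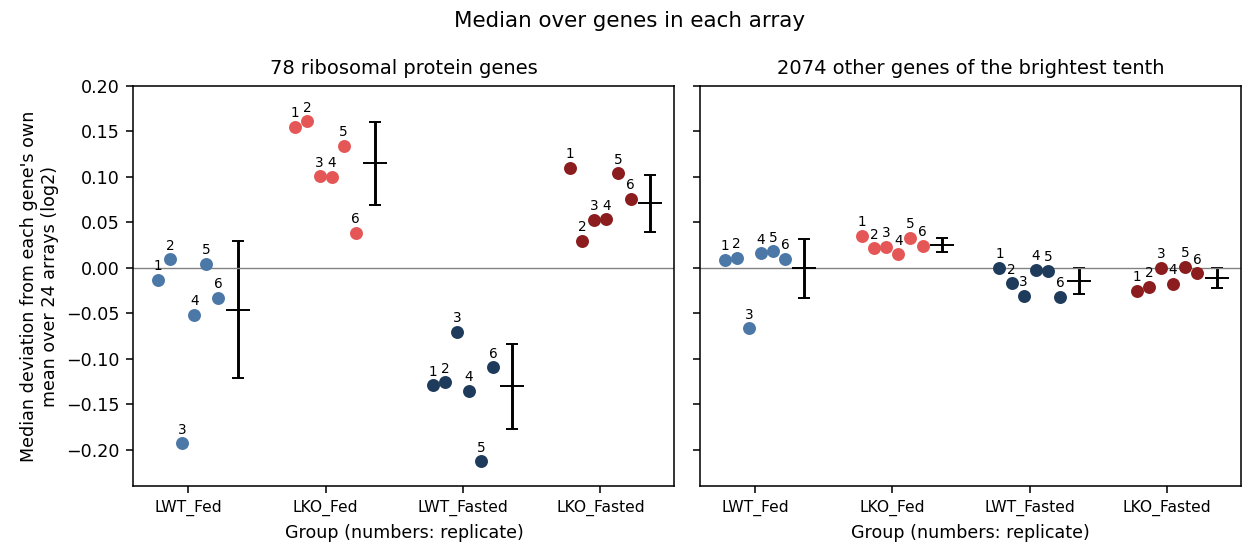
Median deviation of genes from their own 24-array mean (vertical axis, log2) in each array by group, for the 78 ribosomal protein genes (left) and the 2074 other genes of the brightest 10% (right). Points are arrays with their replicate number, and the bar beside each group is the mean ± SD of its 6 arrays. On the left, every LKO array lies above every LWT array, from 0.030 to 0.16 against -0.21 to 0.0095.

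Single arrays showed how far the family moved together. In LKO_Fed between 56 and 78 of the 78 genes were above their own mean, and in LKO_Fasted between 49 and 70 were. In LWT_Fasted only 0 to 10 genes were above their own mean, and in LWT_Fed 9 to 45 were. LWT_Fed replicate 3 was the array with 9, and its family median of -0.19 was well below the next lowest of its group, -0.052. Its median over the brightest 10%, -0.066, was also the lowest of all arrays. LKO_Fed had the highest of the 4 group means for 58 genes and LKO_Fasted for 19. LWT_Fasted had the lowest for 68 genes and LWT_Fed for 8.

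**Figure D2:**
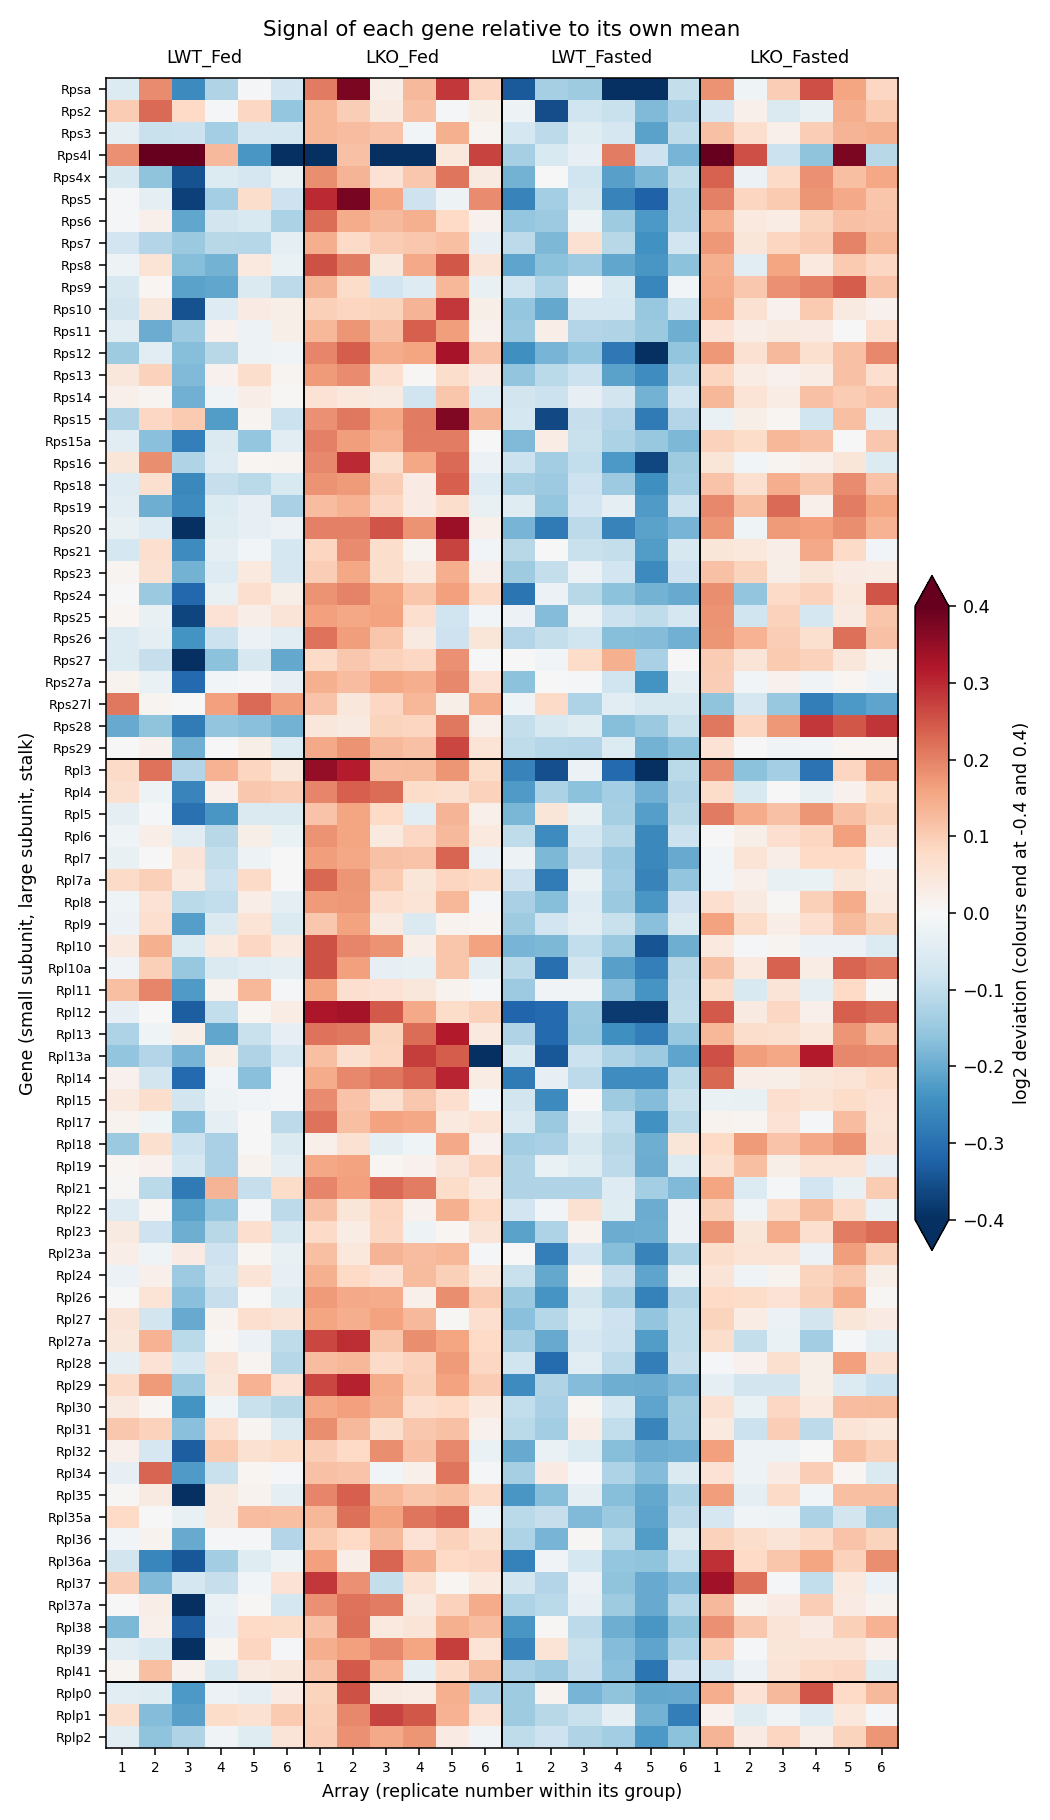
Deviation of 76 of the 78 genes (rows, by subunit) from its own mean in each of the 24 arrays (columns, by group and replicate), in log2 units from blue (lower) to red (higher). Most rows are red in both LKO groups and blue in LWT_Fasted, and the column of LWT_Fed replicate 3 is bluer than its neighbours.

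The first comparison asked how the family differed between genotypes in fed mice. Of the 78 genes, 36 were higher in LKO_Fed than in LWT_Fed and 0 were lower, counting those whose adjusted p did not exceed 0.05 (limma, Benjamini-Hochberg over 32197 probes). Of all genes tested, 8.74% were called higher and 7.48% lower in this comparison. The difference was small, with a median over the family of 0.14 on the log2 scale against -0.014 over all genes tested, and 0 members passed with a fold change above 1.5, against 3.84% of all genes. Fitted differences were positive for 75 genes. For 26 genes all 6 LKO_Fed arrays lay above all 6 LWT_Fed arrays, which held for 5.31% of all genes.

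In the small subunit, 20 of 32 genes rose. Rps12, a protein of the head of the small subunit, read 15.90, 15.99 and 16.06 (lowest, median, highest) in LWT_Fed and 16.18, 16.25 and 16.40 in LKO_Fed. The groups did not overlap, and the difference was 0.27 (SE 0.052, adjusted p = 0.00158). Rps15, a protein near the decoding site, read 15.27, 15.45 and 15.60 in LWT_Fed and 15.63, 15.69 and 15.86 in LKO_Fed, again without overlap. Its difference of 0.27 (SE 0.058, adjusted p = 0.00271) amounted to 1.21-fold. Rps6, the S6 kinase substrate, read 15.40, 15.54 and 15.63 in LWT_Fed and 15.62, 15.74 and 15.83 in LKO_Fed. These ranges touched at their edges, and Rps6 was 1.14-fold higher (log2 0.19, SE 0.046, adjusted p = 0.00732). Rps18 and Rpsa, the latter also known as the laminin receptor precursor, rose by 0.18 and 0.21 on the log2 scale. Rps28, a short protein at the mRNA exit, rose by 0.26 (SE 0.044, adjusted p = 0.000562) with no overlap.

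In the large subunit, 15 of 43 genes rose. Rpl13 had the largest difference among the members that passed, with 15.64, 15.79 and 15.87 in LWT_Fed and 15.89, 16.06 and 16.16 in LKO_Fed. The arrays did not overlap and the difference was 0.28 (SE 0.052, adjusted p = 0.0011). Rpl12, which lies at the base of the stalk, read 15.59, 15.90 and 15.95 in LWT_Fed and 15.99, 16.11 and 16.25 in LKO_Fed, a difference of 0.25 (SE 0.069, adjusted p = 0.0159). Rpl5, which binds 5S ribosomal RNA and can inhibit Mdm2 together with the Rpl11 protein, rose by 0.17 (adjusted p = 0.0335), whereas Rpl11 itself differed by -0.010 (SE 0.051, adjusted p = 0.918). Rpl39, at the peptide exit tunnel, rose by 0.18 (adjusted p = 0.0373). Rpl3, near the peptidyl transferase centre, Rpl10, which joins late in assembly, and Rpl10a each differed by 0.10 and did not pass. Rpl13a, a protein also described as a translational regulator in interferon-treated cells, differed by 0.16 (SE 0.076, adjusted p = 0.16) with LKO_Fed replicate 6 at 14.79 far below its group median of 15.37. Of the stalk genes, Rplp2 rose by 0.15 (SE 0.047, adjusted p = 0.029), and Rplp0 and Rplp1 differed by 0.10 and 0.15 without passing.

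Genes with fitted differences below 0 were Rps4l, Rps27l and Rpl11, and none passed. A fit of only the fed groups gave 13 genes higher, a fit with slide and row as terms 17, and scaling to the 75th percentile of the median or the processed signal 56 and 58, with 0 lower in each. Without LWT_Fed replicate 3 the count was 37.

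**Figure D3:**
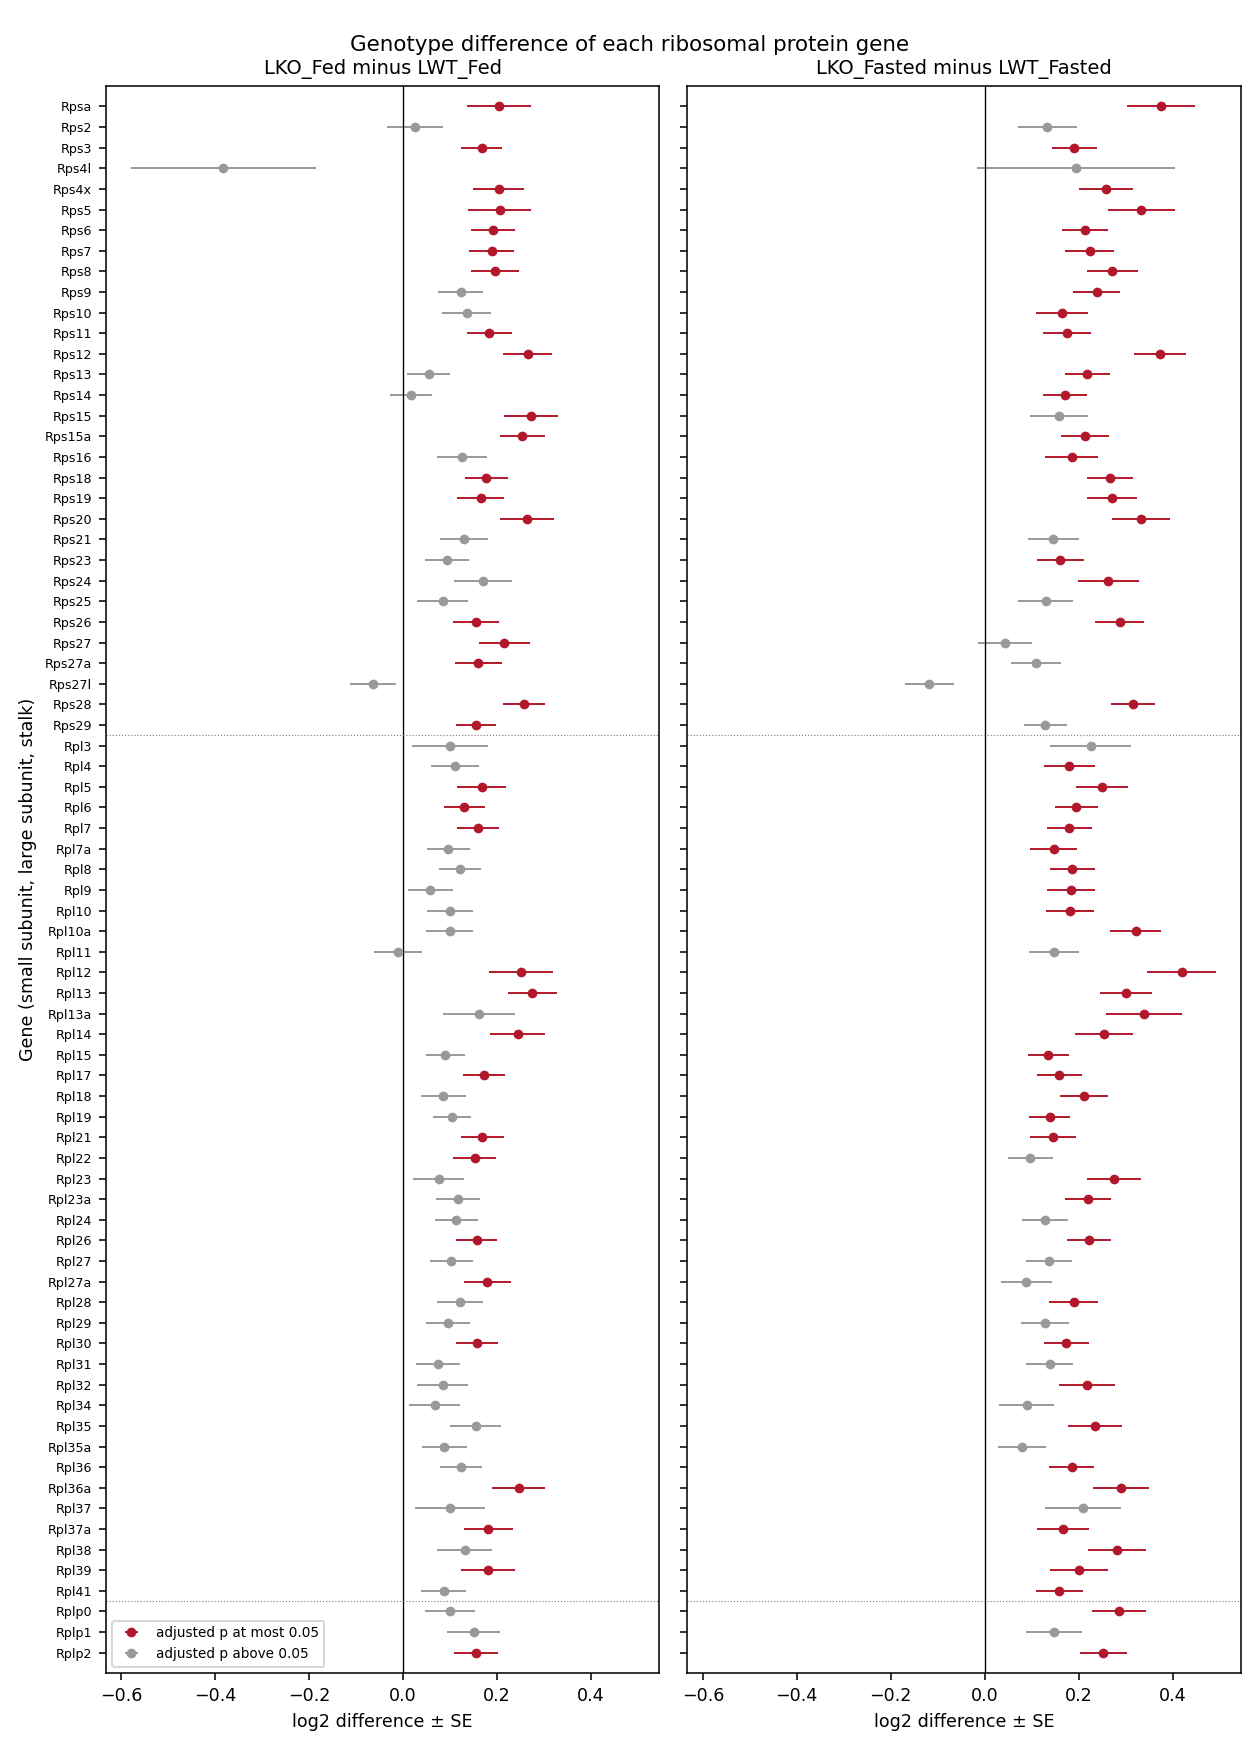
Fitted log2 difference ± SE between genotypes for 76 of the 78 genes (vertical axis, by subunit) in fed mice (left, LKO_Fed minus LWT_Fed) and in fasted mice (right, LKO_Fasted minus LWT_Fasted), 6 arrays per group. Red points, 35 on the left and 55 on the right, have an adjusted p of at most 0.05 and all lie above 0.

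The second comparison asked the same in fasted mice. Here 57 of the 78 genes were higher in LKO_Fasted than in LWT_Fasted and 0 were lower, where 9.79% of all genes were called higher and 10.2% lower. The median difference of the family was 0.19 on the log2 scale, against -0.0037 over all genes, and 77 genes had a positive difference. With a fold change above 1.5, 0 members passed and 4.01% of all genes did. For 47 genes all LKO_Fasted arrays lay above all LWT_Fasted arrays, which held for 4.10% of all genes. In the small subunit 23 of 32 genes rose, in the large subunit 32 of 43, and of the stalk Rplp0 and Rplp2.

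Rpl12 had the largest difference. It read 15.53, 15.60 and 15.82 in LWT_Fasted and 15.94, 16.07 and 16.16 in LKO_Fasted, with no overlap, and was 1.34-fold higher (log2 0.42, SE 0.073, adjusted p = 0.000351). Rpsa read 15.73, 15.91 and 16.05 in LWT_Fasted and 16.13, 16.27 and 16.41 in LKO_Fasted, and was 1.30-fold higher (adjusted p = 0.000878). Rps12 read 15.67, 15.86 and 15.92 in LWT_Fasted and 16.13, 16.20 and 16.26 in LKO_Fasted. Its groups were clearly apart, at a difference of 0.37 (SE 0.056, adjusted p = 7.95e-05). Rps6 read 15.38, 15.46 and 15.58 in LWT_Fasted and 15.63, 15.71 and 15.75 in LKO_Fasted. It was thus 1.16-fold higher without overlap (log2 0.21, SE 0.049, adjusted p = 0.00383).

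Other members moved by similar amounts. Without overlap between the groups, Rpl13a rose by 0.34, Rpl10a by 0.32, Rps28 by 0.32, Rpl13 by 0.30, Rps18 by 0.27 and Rpl5 by 0.25. Rplp0 rose by 0.29 (SE 0.057, adjusted p = 0.00119) and Rplp2 by 0.25 (SE 0.050, adjusted p = 0.00108), while Rplp1 differed by 0.15 (SE 0.060, adjusted p = 0.0867). Rpl39 rose by 0.20, with overlap between the groups. Rpl3 differed by 0.23 (SE 0.086, adjusted p = 0.0701) and Rpl11 by 0.15 (SE 0.054, adjusted p = 0.0578), and neither passed. Rps15 and Rps27, which rose in fed mice, differed here by 0.16 and 0.043 and did not pass.

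Across both states, 30 genes were higher in LKO each time, which is 83.3% of the 36 called in fed mice and 52.6% of the 57 called in fasted mice. Over all genes, 2.04% were called higher in both states. For 17 members the arrays were apart in both states, which held for 0.605% of all genes. Another 15 genes passed in neither state, among them Rpl3, Rpl11, Rpl29, Rpl35a, Rplp1, Rps2 and Rps27l. The chosen Rps2 probe is placed in mm9 far from the annotated gene on the same chromosome, so which transcript it reads was not determined. These genotype comparisons share no arrays with each other, but each shares its groups with the fasting comparisons. Both held on every slide, each of which carried 2 arrays of every group: the median difference of the family was 0.14 to 0.18 in fed mice and 0.17 to 0.25 in fasted mice over the 3 slides. Without LKO_Fasted replicates 1 and 2 the fasted count was 46 and the fed count 34. A fit of only the fasted groups gave 33 genes higher and 0 lower.

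Most genes had more than 1 probe, and the other 92 probes of 57 genes were read as a check on the chosen ones. In fed mice 41 of them were higher in LKO and 1 lower, and in fasted mice 60 were higher and 0 lower. Of the 44 genes called in fasted mice that had another probe, 40 had a further probe that was also called higher and 0 had one called lower. In fed mice the numbers were 23 and 1 of 30. On fasting in LWT, described below, 7 of the other probes were higher and 23 lower, and of 28 called genes with another probe 17 had one called the same way and 2 one called the opposite way. In LKO 19 of the other probes were higher and 11 lower, and the numbers were 5 and 1 of 12. Of all genes, 8.74% and 9.79% were called higher in LKO in fed and in fasted mice. On fasting, 19.4% of all genes were higher and 21.3% lower in LWT, and 19.6% and 21.7% in LKO. The 23 other probes lower in LWT and the 19 higher in LKO were thus near those shares. The second Rps6 probe differed by 0.19 in fed mice and 0.20 in fasted mice. Ribosomal protein genes have many processed pseudogenes of near-identical sequence, and how much signal such copies add was not determined.

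Markers of other cell types were read beside these results. The summed signal of the erythroid markers, of which 3 of 5 were tested, was 10515 to 14765 in LWT_Fed and 5644 to 7891 in LKO_Fed, and 5991 to 10755 in LWT_Fasted and 3059 to 6577 in LKO_Fasted. Alas2, the erythroid enzyme of haem synthesis, was lower in LKO, with a fitted difference of -0.80 (SE 0.16, adjusted p = 0.00181) in fed mice and -0.83 (SE 0.17, adjusted p = 0.00136) in fasted mice. Of the 3 erythroid markers 1 passed lower in fed mice and 2 in fasted mice, 1 had a positive difference in each state, and the summed signals overlapped in fasted mice. Of 4 adipose markers 1, Cfd, was lower in fed LKO mice, at -2.78 (SE 0.73), and the summed signal was 2062 to 2569 in LWT_Fed and 1263 to 1821 in LKO_Fed. In fasted mice Cfd was lower as well, at -3.04, and 1 other adipose marker was higher. Of 5 markers of dividing cells 1 passed lower in each state, while 0 had a positive difference in fed mice and 3 did in fasted mice. Their summed signal was 1448 to 2068 in LWT_Fed and 923 to 1521 in LKO_Fed, and 972 to 1334 in LWT_Fasted and 725 to 954 in LKO_Fasted. Of 5 cholangiocyte markers 2 were lower in fed and 1 in fasted mice, and of 3 pancreas markers 1 and 2 were. Of the 8 hepatocyte markers, 2 were higher and 1 lower in fed mice and 0 and 1 in fasted mice, with Ttr lower in both. For Kupffer cells 0 of 8 markers, for endothelium 1 of 6 and for lymphocytes 0 of 6 passed in fed mice, and 0 in each of these lists in fasted mice, and their summed signals overlapped between genotypes. For stellate cells 0 of 7 passed in either state. The part of these lists in the result was not tested.

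The third comparison asked how 24 h of fasting changed the family in LWT mice. Of the 78 genes, 33 were lower in LWT_Fasted than in LWT_Fed and 1 was higher, where 21.3% of all genes were called lower and 19.4% higher. The median change was -0.11 on the log2 scale against -0.0068 over all genes and -0.046 over the other genes of the brightest 10%. Of those bright genes 28.8% were called lower and 22.4% higher. Changes were below 0 for 74 of the 78 family members. For only 3, Rpl10, Rpl35a and Rpl41, did all fasted arrays lie below all fed arrays, and 10.7% of all genes did so. With a fold change above 1.5, 0 members passed and 9.98% of all genes did. By subunit, 9 of 32 small subunit genes, 22 of 43 large subunit genes and 2 of 3 stalk genes fell.

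Rpl3 fell most. It read 15.26, 15.46 and 15.60 in LWT_Fed and 14.97, 15.09 and 15.36 in LWT_Fasted. The groups overlapped at their edges, and Rpl3 was 1.26-fold lower (log2 -0.33, SE 0.080, adjusted p = 0.00203). Rpl29, a small basic protein on the surface of the large subunit, read 15.67, 15.88 and 15.99 in LWT_Fed and 15.57, 15.63 and 15.69 in LWT_Fasted. Its change was -0.28 (SE 0.047, adjusted p = 6.08e-05), and only the lowest fed array, replicate 3, reached into the fasted range. Rpl10 read 17.49, 17.58 and 17.68 in LWT_Fed and 17.20, 17.36 and 17.44 in LWT_Fasted. These ranges were apart, and the change was -0.25 (SE 0.048, adjusted p = 0.000189).

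Rpl35a read 15.40, 15.49 and 15.55 in LWT_Fed and 15.22, 15.30 and 15.34 in LWT_Fasted, a change of -0.22 (SE 0.047, adjusted p = 0.000866) without overlap. Rpsa, Rpl12 and Rpl11 fell by 0.23, 0.23 and 0.20, Rplp1 by 0.17, Rpl10a by 0.14 and Rplp0 by 0.13 on the log2 scale. Rps6 differed by -0.077 (SE 0.046, adjusted p = 0.195), Rps18 by -0.081 (SE 0.045, adjusted p = 0.16) and Rplp2 by -0.11 (SE 0.046, adjusted p = 0.0676), so none of these passed. Rpl5, Rpl13a and Rpl39 did not pass either, at -0.028, -0.049 and -0.14.

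The number of genes lower in LWT depended on the scaling and on single arrays. Cyclic loess in place of quantile normalization left 6 genes lower and 2 higher with a median of -0.042, and scaling to the 75th percentile left 11 lower and 1 higher for the median signal and 10 and 1 for the processed signal. Without LWT_Fed replicate 5 the number lower was 15, without LWT_Fasted replicate 5 it was 19, without LWT_Fed replicate 3 it was 38, and without LKO_Fasted replicates 1 and 2 it was 28. Of the markers of dividing cells, 4 of 5 fell in the same comparison, and their summed signal was 1448 to 2068 in LWT_Fed and 972 to 1334 in LWT_Fasted. The erythroid sum was 10515 to 14765 in LWT_Fed and 5991 to 10755 in LWT_Fasted, with 1 of 3 markers lower. Also lower were 1 of 8 Kupffer cell, 2 of 7 stellate cell, 2 of 5 cholangiocyte, 1 of 6 lymphocyte, 1 of 3 pancreas, 1 of 4 adipose and 1 of 8 hepatocyte markers, and 1 stellate cell, 1 cholangiocyte and 1 hepatocyte marker were higher. The part of these lists in the result was not tested.

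In LKO mice, 11 genes were lower and 3 higher in LKO_Fasted than in LKO_Fed, where 21.7% of all genes were called lower and 19.6% higher. The median change was -0.053 on the log2 scale, against -0.021 over all genes and -0.057 over the other genes of the brightest 10%, of which 27.6% were called lower, and turned to 0.032 with cyclic loess, under which 3 genes were lower and 9 higher, so the family had no settled direction. With a fold change above 1.5, 0 members passed and 12.7% of all genes did. Scaling to the 75th percentile gave 8 lower and 1 higher for the median signal and 10 and 0 for the processed signal, and centring on the other genes of the brightest 10% gave 6 and 5. For 6 genes the fasted arrays lay below all fed arrays, which held for 11.2% of all genes. Without LKO_Fasted replicate 3 the number lower was 7, and without replicates 1 and 2 it was 9, with 2 higher. Of the markers, 2 of 3 erythroid, 3 of 7 stellate cell, 1 of 5 cholangiocyte, 1 of 5 dividing cell, 1 of 6 lymphocyte, 1 of 4 adipose and 1 of 8 hepatocyte markers were also lower, and 1 marker each of the stellate cell, cholangiocyte, adipose, hepatocyte and endothelium lists was higher, and their part in the result was not tested.

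Rps27l, a paralogue of Rps27 and a known p53 target, had the largest decrease. It read 15.82, 15.90 and 15.95 in LKO_Fed and 15.52, 15.61 and 15.73 in LKO_Fasted, a change of -0.27 (SE 0.053, adjusted p = 0.000305) without overlap. Rpl29 read 15.91, 15.97 and 16.12 in LKO_Fed and 15.73, 15.75 and 15.84 in LKO_Fasted, and fell by 0.24 (SE 0.051, adjusted p = 0.000553). Rpl35a read 15.42, 15.62 and 15.66 in LKO_Fed and 15.29, 15.36 and 15.42 in LKO_Fasted, with its lowest fed array just above the fasted range. It fell by 0.22 (SE 0.051, adjusted p = 0.00131). Rpl10, Rplp1 and Rps15 fell by 0.17, 0.18 and 0.20 on the log2 scale.

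On fasting in LKO 3 genes rose, among them Rps9 and Rps28. Rps9, a small subunit protein that helps keep decoding accurate, rose by 0.13 (adjusted p = 0.0422) and Rps28 by 0.13 (adjusted p = 0.0347). Both were close to the threshold. Rps6 differed by -0.054 (SE 0.050, adjusted p = 0.415).

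In both genotypes 10 genes fell with fasting, which is 30.3% of the 33 in LWT and 90.9% of the 11 in LKO. Over all genes 13.2% were called lower in both, which is 61.8% of those lower in LWT and 60.6% of those lower in LKO, so the members' share of 12.8% was near the background. They were Rpl7a, Rpl10, Rpl21, Rpl27a, Rpl29, Rpl35a, Rplp1, Rps16, Rps27l and Rps29. The Rps29 probe is placed on chromosome 2 in mm9, whereas RefSeq has the gene on chromosome 12, so which transcript it reads was not determined. The difference between the fasting changes was tested as an interaction, the change in LKO minus that in LWT, and 0 of 78 genes passed, where 3.94% of all genes were called higher and 3.60% lower. An unadjusted p under 0.05 was reached by 8 of the 78 genes (10.3%) and by 23.3% of all genes. The median interaction of the family was 0.064 with a median SE of 0.072 for a single gene, and 64 genes had a positive value. Rpl10a was nearest to the threshold, with 0.22 (SE 0.074, adjusted p = 0.0722), and passed under some alternative settings. Rps6 had an interaction of 0.023 (SE 0.068, adjusted p = 0.885), so a difference between its fasting changes was not detectable with 6 mice per group.

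Among the small subunit paralogues Rps27 and Rps27l went different ways. Rps27 was the only member higher with fasting in LWT. It read 15.73, 16.04 and 16.12 in LWT_Fed, 16.17, 16.26 and 16.36 in LKO_Fed, 16.05, 16.17 and 16.32 in LWT_Fasted and 16.19, 16.25 and 16.28 in LKO_Fasted. LWT_Fed was therefore the low group, with an increase of 0.15 (SE 0.053, adjusted p = 0.033) on fasting in LWT, which some alternative settings did not call. Its second probe changed by 0.15 as well. Their mm9 positions, chr9:114891517-114891576 for the chosen one, are on chromosome 9, where RefSeq places the retrogene Rps27rt, while Rps27 itself is on chromosome 3, so signals of the 2 genes cannot be told apart here.

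Rps27l was the counterpart, at 15.80, 15.96 and 16.03 in LWT_Fed and 15.67, 15.75 and 15.87 in LWT_Fasted. It fell by 0.21 (SE 0.048, adjusted p = 0.00117) on fasting in LWT and was the only member whose genotype difference was below 0 in both states, at -0.064 (SE 0.049, adjusted p = 0.417) in fed mice and -0.12 (SE 0.052, adjusted p = 0.124) in fasted mice. Neither passed. Its second probe gave -0.070 and -0.12. Rps4l, noted here after its values were seen, varied most, from 11.34 to 12.46 in LWT_Fed and from 11.01 to 12.10 in LKO_Fed, and its fitted differences of -0.38 (SE 0.20, adjusted p = 0.205) in fed mice and 0.19 (SE 0.21) in fasted mice did not pass.

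**Figure D4:**
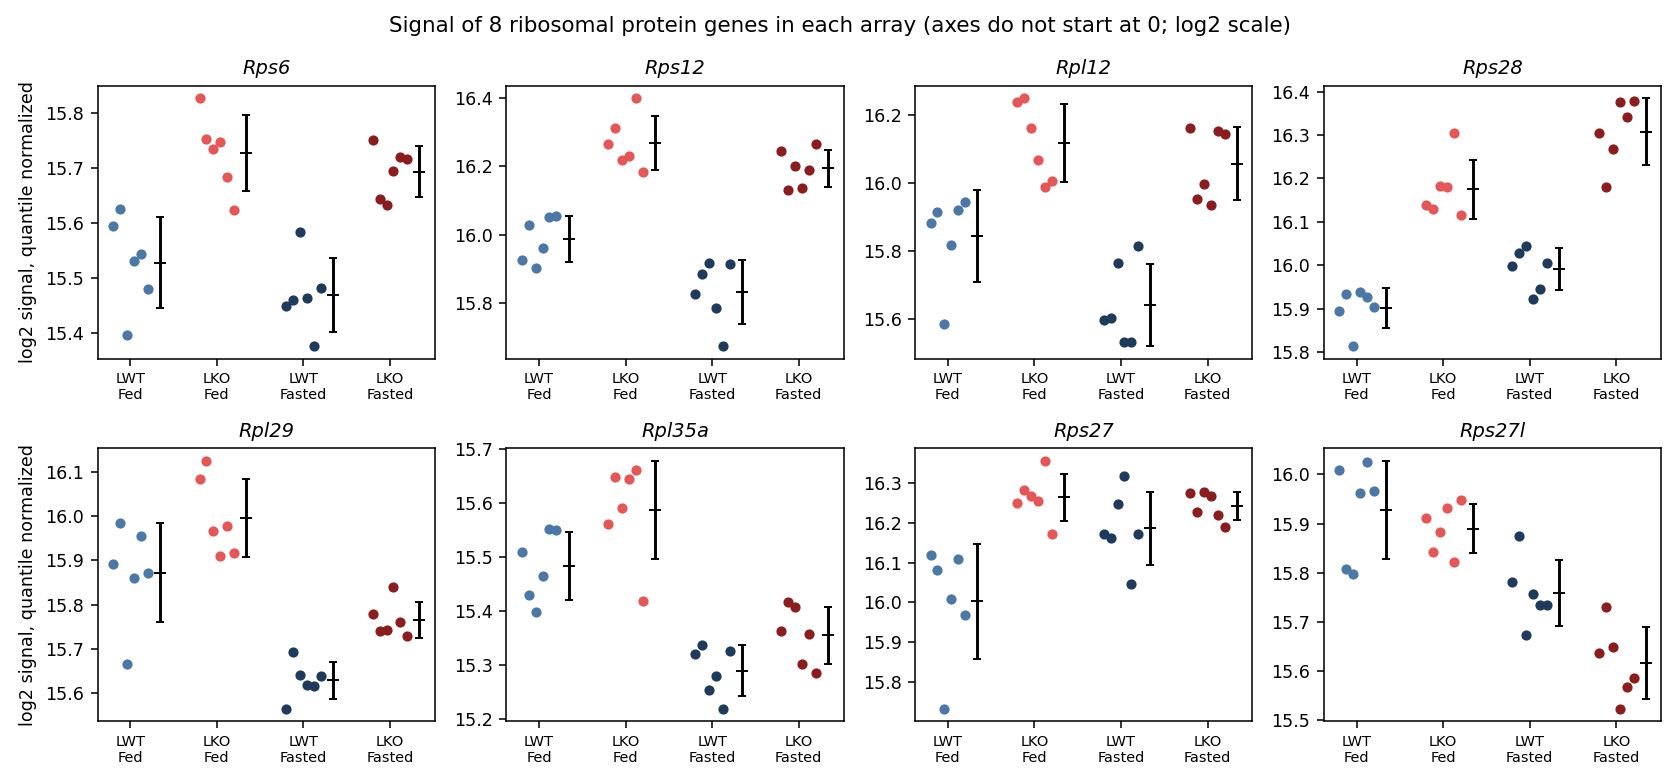
Quantile-normalized log2 signal (vertical axis, each panel on its own range) of 8 ribosomal protein genes in each of the 24 arrays, by group. Points are arrays in replicate order, and the bar beside each group is the mean ± SD of its 6 arrays. Rps6, Rps12, Rpl12 and Rps28 are higher in both LKO groups, Rpl29, Rpl35a and Rps27l are lower in both fasted groups, and Rps27 is lowest in LWT_Fed.

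Genes with and without a TOP tract were set side by side as a description. The 35 genes with a tract within 10 bases of a start had a median genotype difference of 0.15 in fed mice and 0.21 in fasted mice, with 16 and 26 of them higher in LKO. The 22 genes with a promoter but no such tract had medians of 0.11 and 0.19, with 9 and 16 higher. With CCGGAA in the window, 14 and 21 of 32 genes were higher, and without it 11 and 21 of 25. On fasting in LWT the medians were -0.11 with a tract and -0.11 without.

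Some probes of a gene parted from the chosen one, and these were noted after their values were seen. A dim probe of Rps12, at 6.32 in LWT_Fed and 7.02 in LKO_Fasted on average, rose by 0.69 (SE 0.12) on fasting in LKO, where the chosen Rps12 probe changed by -0.061. Another probe of Rpl12 was 0.91 (SE 0.12) higher in LKO_Fasted than in LWT_Fasted and had an interaction of 0.81 (adjusted p = 0.00416). Another probe of Rps9 rose by 1.17 on fasting in LWT and 0.91 in LKO, where the chosen probe changed by 0.017 and 0.13. For Rpl13 a further probe rose by 0.36 on fasting in LWT and 0.66 in LKO, where the chosen probe changed by -0.10 and -0.077. For Rpl10a a further probe rose by 0.68 on fasting in LKO, where the chosen probe changed by 0.084. The probes of Rps12, Rpl12 and Rps9 lie at other positions of the same loci. Which transcripts any of these probes read was not determined.

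For this and the following lists, the shares of all genes called higher and lower were 8.74% and 7.48% between genotypes in fed mice, 9.79% and 10.2% in fasted mice, 19.4% and 21.3% on fasting in LWT, 19.6% and 21.7% on fasting in LKO, and 3.94% and 3.60% for the interaction. No list was tested against another or against all genes. Of 8 ribosomal proteins whose names fall outside the rule, 2 were higher in LKO_Fed than in LWT_Fed and 0 lower, and 1 was higher in fasted mice and 0 lower. Rps3a1, a small subunit protein, was higher by 0.17 (SE 0.051, adjusted p = 0.0269) in fed mice and 0.21 (SE 0.054, adjusted p = 0.00822) in fasted mice. Rsl24d1, a biogenesis protein related to Rpl24, was the other one in fed mice, at 0.22 (adjusted p = 0.0451). On fasting in LWT 3 of the 8 fell, among them Rpl36al by 0.35 and Rpl7l1 by 0.44 on the log2 scale. In LKO 2 fell, with Rpl36al by 0.31. Fau, Rack1 and Rpl22l1 did not pass in any of these 4 comparisons, with genotype differences of 0.059, 0.15 and 0.25 in fed mice.

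The pathway lists below were read the same way, and the extremes named for a list are those among its genes that passed. Of 57 ribosome biogenesis factors, 2 were higher and 1 lower in LKO_Fed than in LWT_Fed, with a median of 0.064. In fasted mice 29 were higher and 1 lower with a median of 0.29. The largest increase was that of Gar1, a protein of the particles that guide pseudouridylation, at 0.76 (SE 0.14, adjusted p = 0.000468), and its group means were 11.65 in LWT_Fasted and 12.38 in LKO_Fasted. Nop16 was the factor that fell, at -0.40 (SE 0.080, adjusted p = 0.00106). In fed mice Fbl, the methyltransferase fibrillarin, was higher in LKO by 0.23 and Nop10 was lower, at -0.22. The interaction passed for 4 factors upward, with Gar1 at 0.64 (SE 0.19, adjusted p = 0.0402), and for 1 downward, Nop16, counts near those shares of all genes.

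On fasting, 8 of the 57 biogenesis factors rose and 13 fell in LWT, near the shares of all genes, with Rcl1 at 0.68 and Mrto4 at -0.41 as the extremes. In LKO 27 rose and 3 fell, with Rrs1 at 0.89 and Fbl at -0.33. For RNA polymerase I and its factors, 0 of 14 differed between genotypes in fed mice and 6 were higher in LKO in fasted mice, led by Cd3eap at 0.50. In each genotype 7 of 14 rose and 1 fell with fasting. Ubtf, an activator of ribosomal RNA genes, rose by 0.59 in LWT, Cd3eap rose by 0.82 in LKO, and Polr1e, a polymerase subunit, fell by 0.62 in LWT and 0.31 in LKO.

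Elongation factors and other mRNAs known to carry a TOP tract numbered 14. Of these, 5 were higher in LKO_Fed than in LWT_Fed, 3 were higher in LKO_Fasted than in LWT_Fasted and 0 were lower in either. Eef1b2, a subunit of the factor that reloads elongation factor 1, led both, at 0.27 (SE 0.055, adjusted p = 0.00179) and 0.30 (SE 0.058, adjusted p = 0.000878). On fasting 6 rose and 1 fell in LWT, with a median of 0.060, and 3 rose and 1 fell in LKO, with a median of 0.064. Eif4b, an initiation factor that is also a TOP mRNA, rose by 0.65 and 0.52, and Eef1g fell by 0.16 in each. Of 30 initiation factors, 1 was higher in fed LKO mice, and 5 were higher and 1 lower in fasted LKO mice, led by Eif3k at 0.34 with Eif4a2 at -0.32. With fasting 5 rose and 5 fell in LWT and 8 rose and 1 fell in LKO, with Eif1, which selects the start codon, at 0.48 and 0.63. Eif2b3 fell by 0.43 in LWT and Eif2b5 by 0.21 in LKO.

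The 78 mitochondrial ribosomal protein genes, which encode a separate ribosome, served as a contrast. In fed mice 0 were higher and 8 lower in LKO, with a median of -0.065 against 0.14 for the cytosolic genes. In fasted mice 9 were higher and 5 lower with a median of 0.0082. Mrps36, now assigned to the oxoglutarate dehydrogenase complex, was the lowest in both, at -0.60 and -0.92, and Mrps2 the highest in fasted mice at 0.42. On fasting 44 fell and 1 rose in LWT and 32 fell and 7 rose in LKO, with Mrps27 at -0.99 and -0.83 and Mrpl17 at 0.20 and 0.60.

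Of 25 genes of mTORC1, the S6 kinases and TOP control, 3 were higher and 2 lower in LKO in fed mice, and 3 were higher and 4 lower in fasted mice. Eif4ebp3, an inhibitor of initiation that mTORC1 phosphorylates, was higher by 0.77 in fed mice, and Rps6ka1, a kinase of the RSK family, had a difference of -0.63. In fasted mice Sesn1 was higher by 0.41, and Ddit4, an inhibitor of mTORC1, was lower, with group means of 12.31 in LWT_Fasted and 10.36 in LKO_Fasted and a fitted difference of -1.92 (SE 0.34, adjusted p = 0.000383). With fasting 9 rose and 7 fell in LWT and 7 rose and 7 fell in LKO. Myc, a transcription factor that drives ribosome production, rose by 1.58 in LWT and 1.59 in LKO, while Mycn, of the same family, fell by 2.26 in LWT and fell by 1.97 in LKO. The interaction passed downward for 3 of the 25, with Sesn2 as the extreme, and upward for 0. Of all genes 3.60% passed downward.

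Long RNAs that host small nucleolar RNAs, several of them TOP transcripts, rose on fasting in LWT. All 8 tested did so, with a median of 0.52, and Snhg3 rose 2.82-fold (adjusted p = 7.91e-09). In LKO 4 rose, Snhg1 most at 0.92, and 1, Snhg8, fell by 0.23. Between genotypes 2 were higher in fed LKO mice, led by Snhg7 at 0.42, and 2 were lower in fasted LKO mice, with Snhg3 at -0.50. The interaction passed downward for 2 of the 8, with Snhg12 at -0.45 (SE 0.12, adjusted p = 0.0242).

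**Figure D5:**
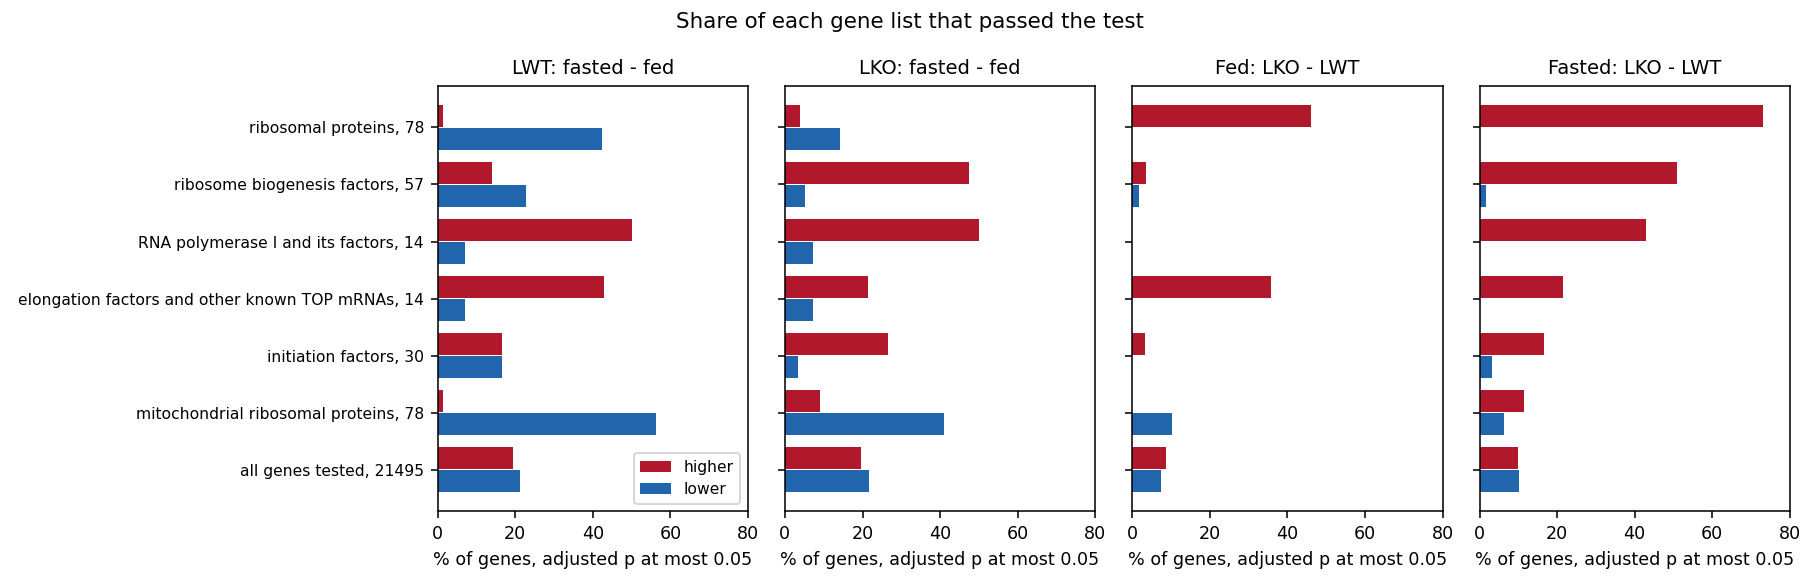
Percentage of each gene list (horizontal axis, from 0) called higher (red) or lower (blue) at an adjusted p of at most 0.05 in the 4 comparisons, with the number of genes tested beside each list. The ribosomal protein genes reach 46.2% higher in fed LKO mice and 73.1% higher in fasted LKO mice with no bar for lower, while the biogenesis factors reach their largest shares higher in the comparison of fasted LKO with fasted LWT mice and on fasting in LKO.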

How the data were processed

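The authors labelled liver RNA with Cy3, used an Agilent SurePrint G3 array for each mouse and extracted spots in Feature Extraction 10.10.1.1. The deposited scanner values are spot intensity (median, mean, background and processed signal), not scaled between arrays. The deposited matrix holds log2 values that the authors filtered, corrected for washing bath and quantile normalized. It served to choose members and as an alternative.

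Median intensities of 32197 probes passing the detection filter were log2 transformed, quantile normalized and fitted with limma 3.58.1 (group means, slide, array weights, eBayes) for 5 contrasts, with two-sided p-values adjusted over all probes. The code was tested on simulated data. Fold changes come from this weighted fit and can depart from differences of raw means. Precision is limited by the number of arrays. Probe positions refer to mm9, and 32994 of 56605 probes were named through RefSeq accessions.

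Members and lists were chosen with earlier results of these data known. Named genes were the 3 largest increases and decreases per comparison among passing members, a fixed set (Rps6, stalk, Rpsa, Rpl5, Rpl11 and others) and the extremes of each pathway list. Alternatives covered scaling, filters, slide, weights, pairing, probe choice and single arrays. A few genes that entered the fits and counts are not reported here by name, and 2 members are not plotted singly.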

Additional observations from a re-analysis of the deposited data

Results flagged for a closer look

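Dixon's gap criterion was read 100 times over the same 4 groups of 6 arrays, for the named members and the family median. Members moved together across arrays, so these readings are not independent. Chance of about 1 in 20 holds for a single reading and was not used to judge their number. In 9 of the 100 readings 1 array lay far from the other 5. LWT_Fed replicate 3 accounted for 5 of them. Its median over the ribosomal protein genes was -0.19, with -0.052 as the next lowest of the group. In that array Rpl12 read 15.59 against a next lowest 15.82, Rpl39 15.16 against 15.53, Rplp0 15.53 against 15.71 and Rps28 15.81 against 15.89. Without this array 37 genes were higher in LKO_Fed and 38 were lower in LWT_Fasted, against 36 and 33 with it. LKO_Fed replicate 5 was high for Rps15 at 15.86 (next highest 15.70) and for Rps28 at 16.30 (16.18). LKO_Fed replicate 6 was low for Rpl13a at 14.79 (next lowest 15.33). LWT_Fasted replicate 2 was high for Rplp0 at 15.77 (15.61).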

How the results depend on the processing

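Read by its chosen probe or by the mean of its probes, no ribosomal protein gene was called lower in LKO in either state under the alternatives run, though 1 other probe was lower in fed mice. Of 642 alternative counts and medians 578 stayed near the reported value, 62 moved and 2 reversed. In fed mice the 36 genes higher in LKO became 58 (processed signal at the 75th percentile), 56 (median signal at it), 13 (only the groups compared), 11 (adjusted p of at most 0.01), 17 (slide and row) and 0 (fold above 1.5). In fasted mice the 57 became 33, 37 and 0 for only the groups compared, p of 0.01 and fold, and the median was 0.25 within slide 3. On fasting in LWT the 33 lower became 10 and 11 with the 75th percentile scalings, 17 without detection filter, 19 with only the groups compared, 14 at p of 0.01, 0 with fold, 6 with cyclic loess, 17 with centring on the brightest 10% and 16 with slide and row. The 1 higher became 0 or 2, and the median was -0.042 with loess and -0.015 within slide 1. On fasting in LKO the 11 lower became 7 with only the groups compared, 4 at p of 0.01, 0 with fold, 3 with loess and 6 with centring. The 3 higher became 0, 1, 5 or 9, and the median turned to 0.032 with loess. The interaction gave 1 gene with normexp or the filter on all 24 arrays and 2 with probes averaged, and its median was 0.0091 with the processed signal, -0.030 within slide 1 and 0.13 within slide 3. Leaving out single arrays gave 25 to 39 genes higher in fed mice, 45 to 62 in fasted mice, 15 to 38 lower and 0 to 1 higher in LWT, 7 to 13 lower and 0 to 4 higher in LKO and 0 to 1 for the interaction. Without LKO_Fasted replicate 4 or 5 the 3 higher became 1, and without replicate 6 they became 0. Among named genes, 5 of 5376 values reversed: on fasting in LWT Rplp0 (0.039) and Rpsa (0.016) within slide 1 and Rps12 (0.0011) with probes averaged, and in LKO Rpl13 (0.13) and Rps12 (0.32) with probes averaged. Loess, centring on the brightest 10% and slide and row were chosen after seeing the data. Why counts and medians moved under an alternative was not tested.

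Replicate numbers did not pair the mice: over 36 pairs of same-numbered arrays the correlation of deviations was -0.18 to 0.28, with 4 over 0.1, and 2 of 24 arrays correlated best with their own number. With the replicate block beside slide, 21 genes were lower and 0 higher on fasting in LWT, 10 lower in LKO, and 33 and 51 higher in LKO in fed and fasted mice.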
